A study of Mus musculus with 8 samples.

Results

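Olfactory receptor genes, named Olfr and a number in the mouse, were examined as a family whose known expression is largely restricted to sensory neurons of the nose. The members were all regions of a deposited ATAC-seq table whose gene name begins with Olfr followed by a digit. They came to 327 of 489637 regions (0.0668%) and to 182 of the 27552 genes that have a region. The table gave 280 of the 327 regions the biotype protein-coding, 26 unprocessed pseudogene, 12 transcribed unprocessed pseudogene and 9 polymorphic pseudogene. ATAC-seq inserts sequencing adapters into open chromatin with a transposase, so the number of reads in a region reports how accessible it is. The 8 libraries came from gastrocnemius, a calf muscle, of mice sampled at 6 months. All carried the genotype Cre+:iMSBmal1 fl/fl, in which the clock gene Bmal1 is flanked by loxP sites, and 4 were given vehicle (Vehicle) and 4 tamoxifen (iMSBmal1KO). The groups therefore differ in the tamoxifen treatment as well as in the knockout, and these cannot be told apart. Each preparation used a pair of whole muscles, the promoter that drives Cre is not given in the sources used here, and nothing says that the libraries of a group come from separate animals, so p-values measure the spread between these samples.

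Olfactory receptors are G protein-coupled receptors that bind odorants on the cilia of olfactory sensory neurons and signal through the G protein encoded by Gnal, the adenylyl cyclase Adcy3 and a cyclic nucleotide-gated channel. The genes stand in large chromosomal clusters, and each neuron expresses a single receptor while the other genes are held in constitutive heterochromatin, a compact state marked by methylation of histone H3. A typical gene has its coding sequence in a single exon that follows noncoding 5′ exons. A few receptors have known roles outside the nose, such as Olfr16 in sperm and muscle cells.

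The libraries held between 4.31 M and 29.5 M reads in regions (M stands for 1e+06), where a read equivalent is the deposited signal divided by the step that 1 read is worth in that library. Vehicle replicate 4 stood apart as the shallowest library, with 16.5% of its reads on mitochondrial regions against 1.11% to 5.51% in the other libraries and with the lowest correlations with them (Pearson's r of log2 signal over regions, 0.80 to 0.85). For several values that turned or moved by over 1.5 times without it, both are given. The signal summed over the 82 regions of Bmal1, listed as Arntl, was 2688, 2248, 2557 and 1942 in Vehicle and 3023, 3421, 3154 and 3315 in iMSBmal1KO (exact two-sided permutation test, p = 0.0286, the smallest that 4 against 4 libraries allow), a value that does not measure the deletion of an exon. Muscle fibre markers were accessible: the promoter regions of 15 genes summed to 16809 to 27960 in Vehicle and 20781 to 25768 in iMSBmal1KO. The promoters of 7 genes that mark olfactory sensory neurons summed to 30.8 to 62.5 in Vehicle and 36.4 to 57.3 in iMSBmal1KO. Of these genes only Omp, Gnal and Adcy3 had a promoter region. Over all regions the 7 genes summed to 490 to 663 in Vehicle and 521 to 576 in iMSBmal1KO. The 15 fibre genes then summed to 25508 to 42724 and 33486 to 41063. The lists differ in size, so the sums are not a ratio per gene. No region at all was listed for Cnga2 and Rtp1, and the promoter of Omp, the classical marker of mature olfactory neurons, had a signal of 6.81 ± 6.16 for Vehicle and 6.36 ± 1.29 for iMSBmal1KO (SD, n = 4 each).

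The sequences at the annotated starts of the genes were set beside those of other protein-coding genes, which were not chosen for use in muscle. RefSeq windows of 300 bases (GRCm38.p6, 250 before to 50 after each annotated start) were at hand for 948 starts of 944 Olfr genes, including 129 of the 182 genes with a region. Of these, 4 are printed with that of 1 other gene from 5′ to 3′ on the strand of the gene, in lower case with every CG pair in capitals: the only Olfr windows that overlapped a region (Olfr212 and Olfr545), the windows of Olfr16, known outside the nose, and of Olfr974, the gene with the clearest difference between the groups, and for contrast that of Ckm, the muscle creatine kinase.
Olfr212, chr6:116506266-116506565, plus strand: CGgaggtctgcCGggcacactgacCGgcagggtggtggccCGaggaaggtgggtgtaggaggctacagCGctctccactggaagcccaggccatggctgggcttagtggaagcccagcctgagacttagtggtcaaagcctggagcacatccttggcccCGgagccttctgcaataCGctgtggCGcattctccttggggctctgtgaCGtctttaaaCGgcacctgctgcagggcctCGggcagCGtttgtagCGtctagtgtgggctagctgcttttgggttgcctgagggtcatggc
Olfr545, chr7:102494724-102495023, minus strand: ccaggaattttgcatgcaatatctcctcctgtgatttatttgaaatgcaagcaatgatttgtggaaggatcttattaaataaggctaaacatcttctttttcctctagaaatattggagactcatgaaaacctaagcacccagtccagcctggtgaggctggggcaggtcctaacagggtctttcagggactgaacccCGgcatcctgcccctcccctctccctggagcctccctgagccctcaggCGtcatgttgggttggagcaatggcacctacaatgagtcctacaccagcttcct
Olfr16, chr1:172956518-172956817, plus strand: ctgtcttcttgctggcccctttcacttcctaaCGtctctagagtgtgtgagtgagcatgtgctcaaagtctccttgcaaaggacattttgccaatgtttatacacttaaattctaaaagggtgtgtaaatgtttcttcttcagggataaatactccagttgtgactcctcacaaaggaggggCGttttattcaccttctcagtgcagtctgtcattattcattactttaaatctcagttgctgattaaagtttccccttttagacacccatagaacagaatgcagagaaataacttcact
Olfr974, chr9:39942012-39942311, plus strand: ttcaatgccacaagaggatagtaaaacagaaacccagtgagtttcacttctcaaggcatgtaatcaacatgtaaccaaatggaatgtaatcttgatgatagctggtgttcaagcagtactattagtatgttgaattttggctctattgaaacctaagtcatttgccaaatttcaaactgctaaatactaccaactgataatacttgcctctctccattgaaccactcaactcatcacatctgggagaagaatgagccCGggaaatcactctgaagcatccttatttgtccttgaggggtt
Ckm, chr7:19410844-19411143, plus strand: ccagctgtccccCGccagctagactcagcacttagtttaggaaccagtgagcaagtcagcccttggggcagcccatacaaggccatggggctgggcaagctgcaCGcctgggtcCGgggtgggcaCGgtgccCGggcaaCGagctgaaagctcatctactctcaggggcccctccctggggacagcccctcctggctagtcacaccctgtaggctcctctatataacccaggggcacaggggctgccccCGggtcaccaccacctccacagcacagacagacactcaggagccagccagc
The windows of Olfr212 and Ckm are 62.3% and 64.7% G or C and hold 13 and 7 CG pairs. Those of Olfr545, Olfr16 and Olfr974 are 49.3%, 40% and 39% G or C and hold 2, 2 and 1 CG pairs. The windows of Olfr545 and Olfr974 have the start codon ATG right after their 250 upstream bases, so there the RefSeq start is the start of the coding sequence.

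Windows of Olfr genes were nearly always without an accessible region. Only 2 of 948 (0.211%) overlapped a region of the table, against 12272 of 19993 windows (61.4%) of other protein-coding genes and 2 of 322 (0.621%) of the vomeronasal receptor genes Vmn1r and Vmn2r, another clustered family of chemoreceptors. None of the Olfr windows overlapped a region with enough reads to be tested, whereas 54.8% of the other protein-coding windows did. The median Olfr window had 35% G or C (quartiles 31.7% and 39.7%) and 1 CG pair, and 33.3% had none. The median of other protein-coding genes was 57.3% with 14 CG pairs, and 2.96% had none.

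Base composition was compared directly. Among other protein-coding genes, 9 of the 253 windows (3.56%) whose G and C content was at or below the Olfr median overlapped a region, and 134 of the 1597 (8.39%) with no more CG pairs than the Olfr median. These are counts over 1 set of regions called for all libraries, with no test over libraries. In 72.4% of the Olfr windows the annotated start was an ATG, against 3.81% for other protein-coding genes and 24.9% for those poor in G and C. Such windows lie mostly before the coding sequence and need not hold a promoter. Composition and motifs are therefore not compared over like sequence. Among windows whose annotated start was not an ATG, 1 of 262 Olfr windows (0.382%) and 9 of 190 windows poor in G and C (4.74%) overlapped a region. For all other protein-coding genes, those poor in G and C included, it was 12111 of 19232 (63.0%).

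**Figure D1:**
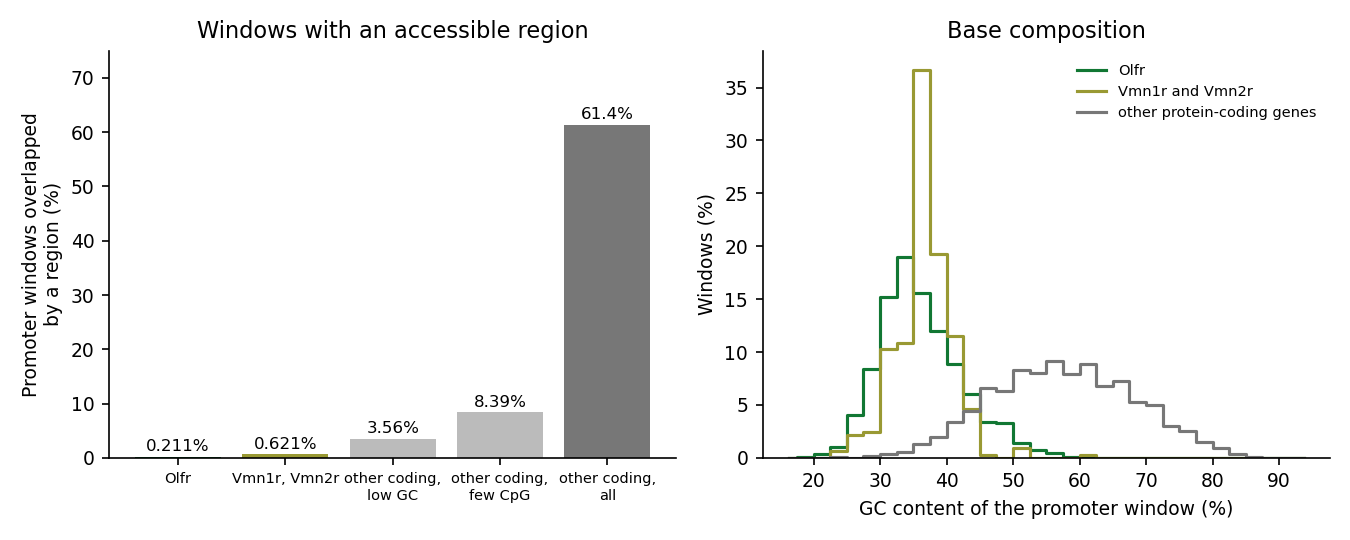
The left panel gives the percentage of RefSeq windows at annotated starts, labelled promoter windows, that overlap a region of the table (bars start at 0). The bars are for Olfr, vomeronasal receptor genes, other protein-coding genes with at most the median G and C content or CG count of Olfr windows, and all other protein-coding genes. The right panel gives the distribution of G and C content as the percentage of windows of each set per bin. Olfr windows lie at 0.211% with a region and centre on 35% G and C, while other protein-coding windows lie at 61.4% and centre on 57.3%.

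Short motifs in these windows were counted as a description, on both strands, with no statement on binding. TAATTA, the core of homeodomain sites such as those of Lhx2, was found in 18.6% of Olfr windows, 3.77% of other protein-coding windows and 27.7% of those poor in G and C. TATAAA, the TATA box core, was found in 41.0%, 10.9% and 47.8% respectively. CACGTG, the E-box that Bmal1 and its partner recognise, was in 2.11% of Olfr windows, 8.18% of other protein-coding windows and 0.791% of those poor in G and C. The 2 Olfr windows with a region held none of these motifs.

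The pair of open windows differed in depth. At Olfr212 the signal was 18.1, 13.4, 16.5 and 12.5 in Vehicle and 15.4, 8.36, 17.9 and 15.1 in iMSBmal1KO, from 133 reads in all. At Olfr545 it was 1.07, 4.11, 2.54 and 0 in Vehicle and 4.28, 6.69, 3.58 and 6.27 in iMSBmal1KO, from 35 reads. At Ckm it was 2088, 1613, 1760 and 1510 in Vehicle and 1432, 1634, 1554 and 1778 in iMSBmal1KO. The groups overlapped at all 3. The regions at Olfr212 and Olfr545 were too shallow to be tested singly.

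Across the whole family, few genes had any region. Of the 1428 Olfr genes in RefSeq, 181 (12.7%) had one, and the remaining gene with regions, Olfr184-ps1, was not in that table. The share was 158 of 1110 (14.2%) for protein-coding Olfr genes and 23 of 317 (7.26%) for pseudogenes. Other families restricted to particular tissues gave 84 of 359 (23.4%) for Vmn1r and Vmn2r, 1 of 16 for the trace amine receptors Taar, 1 of 40 for the bitter receptors Tas2r, 9 of 43 (20.9%) for the beta-defensins Defb and 19 of 56 (33.9%) for the hair keratin-associated proteins Krtap. Of 20790 other protein-coding genes, 16579 (79.7%) had a region, and of the 6851 no longer than 10 kb, 4068 (59.4%). An Olfr gene with a region had 1.80 regions on average, against 17.1 for other protein-coding genes and 5.07 for the short ones. A single region was listed for 125 of the Olfr genes, 2 for 29 and 3 or more for 28. Chromosome 7 held the most Olfr regions, 67 at 47 genes, followed by chromosome 2 with 55 at 36 genes. Nearly identical copies are common in this family, so a read that maps to several copies could be missing from, or placed at, any of them. Of the non-zero Olfr values, 99.3% to 100% per library were whole reads within a tolerance of 0.02.

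Most Olfr regions lay outside the coding exon. Of the 327, 104 (31.8%) fell in a RefSeq Olfr gene only, 1 in an Olfr gene and another gene, 23 (7.03%) in another gene only and 199 (60.9%) in no RefSeq gene. By the annotation of the table, 93 (28.4%) lay in the section TTS at the end of a transcript, against 7.16% of other genic regions. The section TSS held 84 (25.7%, others 21.3%), 5′ UTR exons 78 (23.9%, others 13.6%), 3′ UTR exons 31 (9.48%, others 4.99%), coding exons 18 (5.50%, others 5.40%) and introns 23 (7.03%, others 47.6%). In the table TSS and TTS are wide sections, from 999 bp before to 99 bp after the start or end. Within 1000 bp of an annotated start lay 162 Olfr regions (49.5%), against 28.2% of other genic regions.

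Over the annotated start itself lay 10 Olfr regions at 10 genes (3.06%, others 4.49%). These regions were shallow, with a median of 39.5 reads over the 8 libraries against 705 for the other regions over a start, and 2 of the 10 could be tested against 77.2% of the others. The deepest were at Olfr1372-ps1 (156 reads) and Olfr71 (147 reads), followed by Olfr432 (61 reads) and Olfr557 (57 reads).

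Reads at Olfr regions lay less near the starts than reads at other genes. Within 1000 bp of a start fell 51.4%, 53.7%, 47.5% and 57.3% of Olfr reads in Vehicle and 46.9%, 49.3%, 52.0% and 53.4% in iMSBmal1KO. The share for other genic regions was 60.2% to 65.7%. The difference was -11.8 percentage points on average, negative in 8 of 8 libraries (exact two-sided sign-flip permutation test, p = 0.0078, the smallest that 8 libraries allow).

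Olfr regions were also weak. Their median total over the 8 libraries was 29 reads (quartiles 18 and 47, range 3 to 1674) against 45 for all other regions, although they were longer, with a median of 136 bp against 109 bp for regions of other protein-coding genes. In a single library the median Olfr region held 2 to 6 reads. The signal per kb of Olfr region was 36.7, 29.6, 45.2 and 52.0 in Vehicle and 30.6, 33.9, 46.8 and 38.1 in iMSBmal1KO. For all other nuclear regions it was 203, 193, 175 and 167 in Vehicle and 185, 205, 212 and 202 in iMSBmal1KO. Olfr regions were lower in 8 of 8 libraries, by 3.21-fold in Vehicle replicate 4 and up to 6.50-fold in Vehicle replicate 2. The mean log2 ratio was -2.32 ± 0.36 (SD, n = 8; exact two-sided sign-flip permutation test, p = 0.0078). The ratio was -0.93 when the median region replaced the sum. It was -1.66 when regions within 1000 bp of a start were left out of both sets. Low signal was not particular to Olfr regions: the Vehicle mean per kb was 40.9 for Olfr, 35.7 for Defb and 56.1 for Krtap. For Tas2r and Taar, with 1 region each, it was 21.7 and 14.8.

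Vomeronasal receptor regions were the nearest comparison. Their signal per kb was 60.7, 53.7, 53.8 and 65.0 in Vehicle and 48.7, 57.2, 65.5 and 57.3 in iMSBmal1KO. By this sum Olfr regions were lower in 8 of 8 libraries, with a mean log2 ratio of -0.58 (exact two-sided sign-flip permutation test, p = 0.0078, the smallest that 8 libraries allow). The direction depended on the measure: the log2 ratio was 0.20 for the median region (p = 0.031, exact sign-flip permutation test). It was 0.73 when regions within 1000 bp of a start were left out of both sets (p = 0.0078, exact sign-flip permutation test). No order of these families is read from these values.

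**Figure D2:**
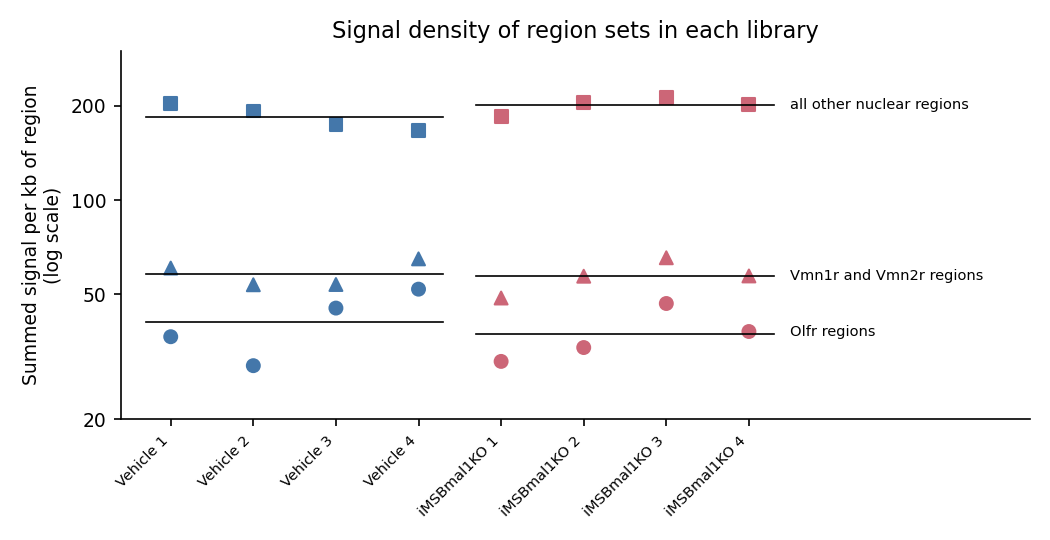
Summed signal per kb of region on a log axis in each of the 8 libraries for all other nuclear regions (squares), vomeronasal receptor regions (triangles) and Olfr regions (circles), with Vehicle in blue, iMSBmal1KO in red and the group mean as a line. Olfr regions sit between 29.6 and 52.0, below all other nuclear regions at 167 to 212 in every library, and the groups overlap.

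Density was also low over the chromosomal clusters as a whole. Neighbouring Olfr regions at most 1000 kb apart were joined into spans, 24 of which held at least 2 RefSeq Olfr genes. These covered 23.9 Mb with 1036 RefSeq Olfr genes and 2288 regions, of which 293 were Olfr regions. Each span starts and ends at an Olfr region by construction. Together they held 9.57 regions per 100 kb against 17.98 elsewhere. Signal per 100 kb was 2.79-fold to 3.08-fold lower inside the spans in the 8 libraries (mean log2 ratio -1.52 ± 0.044, SD; lower in 8 of 8; exact two-sided sign-flip permutation test, p = 0.0078). Vehicle libraries gave -1.51 ± 0.015 and iMSBmal1KO libraries -1.53 ± 0.063 for this ratio (SD, n = 4; exact two-sided permutation test, p = 0.8286).

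Individual clusters varied, and 5 of the 24 spans were denser than the genome elsewhere. These lay at chr11:58596530-59614456 (46.8 regions per 100 kb, with 16 RefSeq Olfr genes and 41 others), chr4:43695284-43710263 (33.4, with 2 and 0), chr11:52157756-52213817 (30.3, with 2 and 1), chr15:98212523-98501406 (22.5, with 11 and 7) and chr13:21134288-21614831 (20.2, with 6 and 48). The span on chromosome 4 held 5 regions, all of them Olfr regions, and chr11:52157756-52213817 held 17, of which 10 were. Such short spans are dense in part because they are cut at Olfr regions. The 5 spans with the most Olfr genes were all sparser. The span chr7:102481067-105368907, which also contains the beta-globin genes, held 157 RefSeq Olfr genes, 23 Olfr genes with a region and 7.10 regions per 100 kb. The largest, chr2:85784124-90299769, held 263 RefSeq Olfr genes, 23 Olfr genes with a region and 4.58 regions per 100 kb. Its signal per 100 kb averaged 22.8 ± 11.7 in Vehicle and 15.1 ± 5.50 in iMSBmal1KO, against 49.7 ± 5.44 and 47.9 ± 5.21 in the span of the beta-globin genes (SD, n = 4). The span chr7:106689255-108648462 held 69 RefSeq Olfr genes and 12 with a region at 12.9 regions per 100 kb, chr10:128990118-130116500 held 65 and 11 at 8.52, and chr9:39177497-40111372 held 47 and 10 at 5.25. Other genes lie within these spans and contribute to the region counts, 59 in the span of the beta-globin genes and 5 in that on chromosome 9.

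The total Olfr signal did not separate the groups. Olfr regions took 128, 109, 184 and 221 reads per M nuclear reads in Vehicle and 117, 117, 157 and 134 in iMSBmal1KO, or 161 ± 51.3 against 131 ± 18.6 (SD, n = 4). The difference was -29.4 (exact two-sided permutation test, p = 0.343), -9.14 without Vehicle replicate 4, and -18.9 with mitochondrial reads counted in the total. The mitochondrial share was 3.31%, 2.26%, 5.51% and 16.5% in Vehicle and 1.11%, 1.40%, 3.06% and 2.70% in iMSBmal1KO, and in each group the pair of libraries with the higher mitochondrial share also had the higher Olfr share. Beyond the change of the total, its part in the result was not tested. The summed signal was 1757, 1420, 2168 and 2492 in Vehicle and 1465, 1622, 2243 and 1825 in iMSBmal1KO, a log2 difference of -0.12 (exact two-sided permutation test, p = 0.629) that was 0.0088 without Vehicle replicate 4, -0.25 with total-read scaling and -0.05 with trimmed-mean scaling. In bulk muscle a change in the share of cells and a change within cells cannot be told apart. The 3 regions with the highest signal held 14.96% to 29.1% of all Olfr reads in a library.

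**Figure D3:**
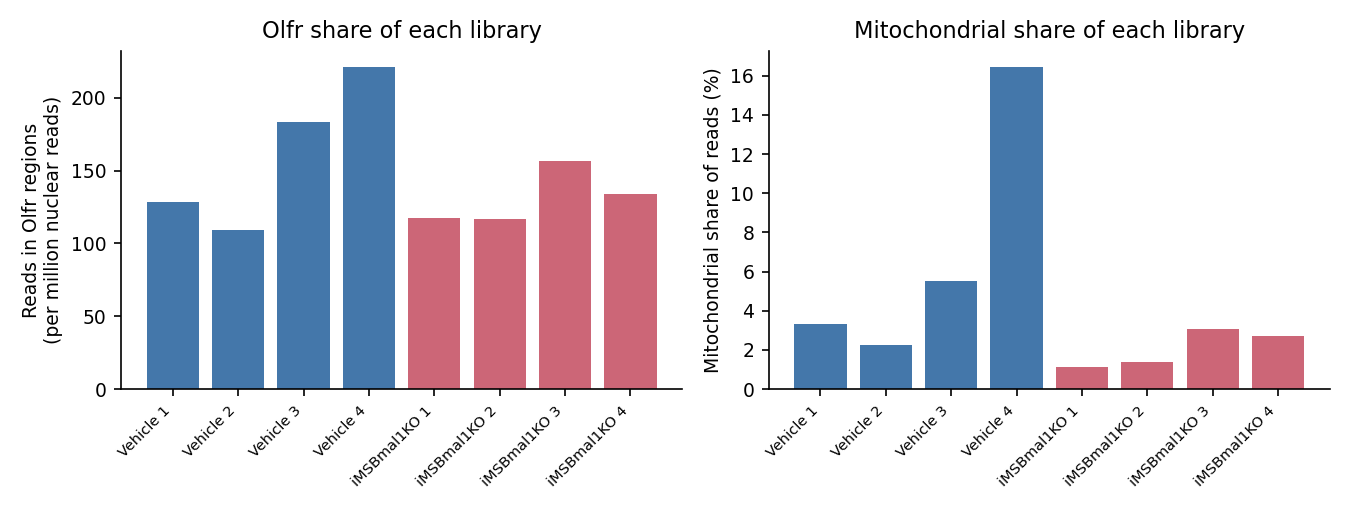
The left panel gives the reads in Olfr regions per M nuclear reads and the right panel the mitochondrial share of all reads, as 1 bar per library starting at 0 (Vehicle in blue, iMSBmal1KO in red). The Olfr share of iMSBmal1KO libraries, 117 to 157, lies within the Vehicle range of 109 to 221, and Vehicle replicate 4 is highest in both panels.

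Single regions were tested if they had 15 or more read equivalents over the 8 libraries and, in 4 or more of these, a depth of at least 0.762 per M. Of the 327 Olfr regions 28 (8.56%), at 24 genes, passed, against 25.5% of all other regions. The 28 are the deepest and not a sample of the family. None of them passed an adjusted p of 0.05 (limma with Benjamini-Hochberg adjustment over 124901 regions, smallest adjusted p among Olfr regions 0.214), where 0.0881% of all tested regions did. At an unadjusted p under 0.05 there were 4, all higher in iMSBmal1KO, where 9.22% of all tested regions were called in either direction and 6.59% as higher. The groups did not overlap in 4 regions, all higher in iMSBmal1KO, where 5.48% of all tested regions had separate groups and 3.62% with iMSBmal1KO higher. They were the same 4 regions: an abutting pair at Olfr974, and those at Olfr56 and Olfr287. The Olfr974 region at chr9:39939309-39939466 met the depth cut in iMSBmal1KO libraries only. The other of Olfr974 and that of Olfr56 met it in every iMSBmal1KO library and a single Vehicle library. Their direction is thus partly set by the filter. The median log2 change was 0.27, against 0.12 over all tested regions, and 0.17 against 0.17 without Vehicle replicate 2. Without Vehicle replicate 4 it was 0.26, against 0.04 over all tested regions. With no filter all 327 were tested and none passed, where 0.0398% of all regions did. At an unadjusted p under 0.05 were then 10 higher and 6 lower (background 6.57%), and the median was -0.11, against 0.03 over all.

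Summed by gene, 38 of the 182 Olfr genes passed the same kind of filter among 22270 genes, and 1 of them, Olfr974, passed an adjusted p of 0.05, as did 0.13% of all tested genes. At an unadjusted p under 0.05 there were 2 Olfr genes, where 9.48% of all genes were called. The groups did not overlap in 2 of the 38 Olfr genes, both higher in iMSBmal1KO. Among all 22270 tested genes, 821 had separate groups with iMSBmal1KO higher and 274 with it lower. The median log2 change of the 38 was -0.08, against 0.11 over all tested genes, and 0.06 against 0.05 without Vehicle replicate 4. Its order thus rests on that library, while its sign also turned without iMSBmal1KO replicate 4 (0.0029 against 0.12).

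**Figure D4:**
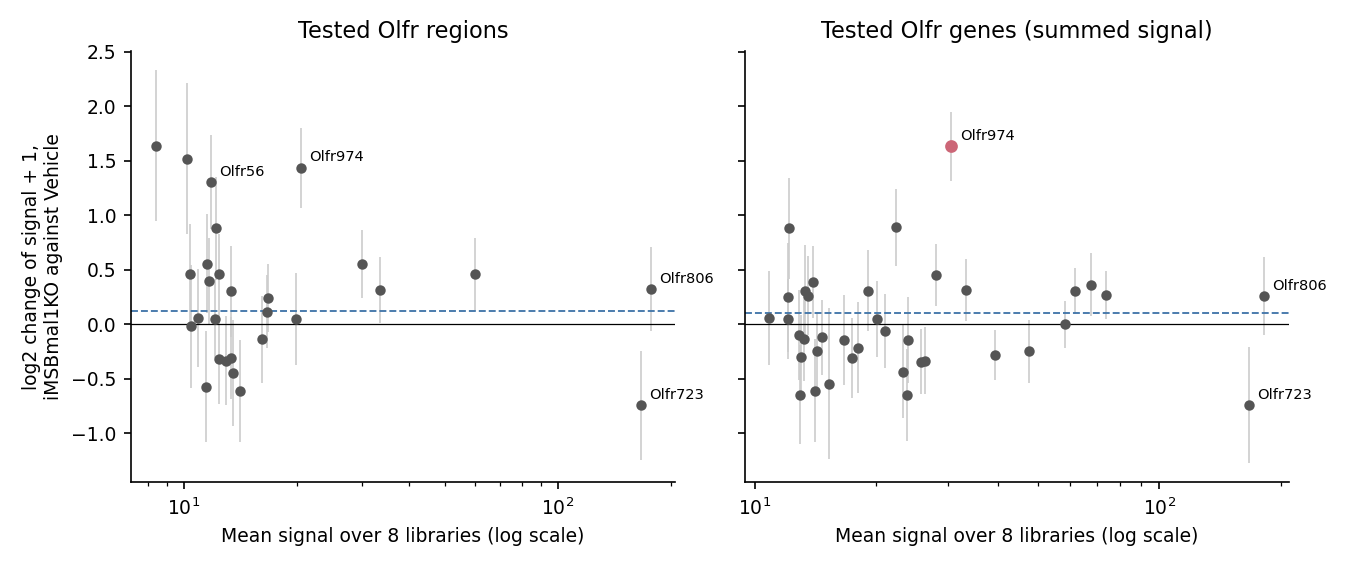
Log2 change of signal + 1 (iMSBmal1KO against Vehicle, with its standard error as a grey bar) against the mean signal over the 8 libraries on a log axis, for the 28 tested Olfr regions on the left and the 38 tested Olfr genes on the right. The dashed line is the median over all tested regions (0.12) or genes (0.11). Olfr974, at 1.63, is the point in red, the gene with an adjusted p under 0.05.

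Olfr974, a receptor gene of the chromosome 9 cluster, was higher in iMSBmal1KO. The signal summed over its 3 regions was 14.9, 9.25, 16.5 and 15.6 in Vehicle and 41.9, 45.2, 72.8 and 28.9 in iMSBmal1KO. Every iMSBmal1KO library was above every Vehicle library. The log2 change was 1.63 ± 0.31 (SE; limma with Benjamini-Hochberg adjustment over genes, adjusted p = 0.0383), from 290 reads in all and 5 to 98 per library. The call depended on single libraries. Without Vehicle replicate 1, Vehicle replicate 3, or iMSBmal1KO replicate 1, 2 or 3 it was lost (adjusted p up to 0.300), and the direction was the same each time.

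The 3 regions of Olfr974 lie side by side. They lie at chr9:39938997-39939060, chr9:39939066-39939309 and chr9:39939309-39939466, the last pair abutting, and the table places all of them in a 5′ UTR exon of the transcript Olfr974-202. They lie in no RefSeq gene and upstream of the RefSeq window printed above, which had no region. The first was at 0, 0, 0.635 and 0 in Vehicle and 3.00, 4.18, 4.77 and 1.25 in iMSBmal1KO and was too shallow to test. The second was at 10.7, 8.22, 8.26 and 12.5 against 25.3, 26.8, 56.1 and 16.3 (log2 change 1.44 ± 0.36, limma adjusted p = 0.214). The third was at 4.26, 1.03, 7.63 and 3.13 against 13.7, 14.2, 11.9 and 11.3 (log2 change 1.64 ± 0.69, limma adjusted p = 0.511). Neither region passed the threshold by itself, and both passed the filter mainly through the iMSBmal1KO libraries.

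The regions with the highest signal in the family did not differ between the groups beyond their spread. The highest was a region of Olfr806 at the end of a transcript, chr10:129735475-129735728, at 136, 99.7, 350 and 87.5 in Vehicle and 140, 136, 243 and 221 in iMSBmal1KO (log2 change 0.32 ± 0.38, limma adjusted p = 0.790). The next was a region of Olfr723 in the section TSS, chr14:49932709-49932921, at 110, 164, 217 and 316 in Vehicle and 43.7, 97.0, 183 and 202 in iMSBmal1KO (log2 change -0.74 ± 0.50, limma adjusted p = 0.644). The groups overlapped at both, and single libraries moved both changes. At Olfr806 the change ran from 0.09 without Vehicle replicate 4 to 0.75 without Vehicle replicate 3. At Olfr723 it ran from -0.29 without iMSBmal1KO replicate 1 to -1.02 without iMSBmal1KO replicate 4. At Olfr1331, chr4:118867726-118867988, the signal was 70.4, 34.9, 63.5 and 31.3 in Vehicle and 35.1, 67.7, 109 and 69.0 in iMSBmal1KO. At Olfr584, chr7:103083088-103083321, it was 23.5, 22.6, 40.7 and 31.3 against 26.5, 28.4, 48.9 and 45.2. These 4 lie in no RefSeq gene, and the log2 changes at Olfr1331 and Olfr584 were 0.46 and 0.32 (limma adjusted p = 0.655 and 0.732). Leaving out 1 library at a time gave 0.21 to 0.75 at Olfr1331 and 0.17 to 0.48 at Olfr584, in each case lowest without iMSBmal1KO replicate 3. Without Vehicle replicate 4 the change at Olfr1331 was 0.27.

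Below them the signal fell off, and 6 of the 327 regions had a mean above 20. The region of Olfr1398-ps1, a pseudogene, at chr3:52242646-52242843 was at 29.8, 31.9, 24.8 and 12.5 in Vehicle and 37.2, 32.6, 29.8 and 40.1 in iMSBmal1KO. It lies inside the RefSeq gene Gm30125, so its reads may belong to that gene. Its log2 change was 0.55, and 0.27 without Vehicle replicate 4. The highest regions of Olfr650-ps1, Olfr71, Olfr1372-ps1 and Olfr1087 had means over the 8 libraries of 19.9, 16.8, 16.6 and 14.1. Their log2 changes ran from -0.61 at Olfr1087 to 0.24 at Olfr71, with limma adjusted p from 0.669 to 0.975. That of Olfr71, chr4:43710066-43710117, abuts the region over the gene's start.

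After Olfr974 the smallest unadjusted p-values among higher regions belonged to Olfr56 and Olfr287. The region of Olfr56 at chr11:49103470-49103558 was at 3.20, 6.93, 9.53 and 6.25 in Vehicle and 16.7, 25.1, 15.5 and 11.3 in iMSBmal1KO (log2 change 1.30 ± 0.43, limma adjusted p = 0.427). That of Olfr287 at chr15:98212523-98212640, inside the RefSeq gene, was at 5.33, 10.3, 9.53 and 0 in Vehicle and 16.3, 15.9, 13.1 and 11.3 in iMSBmal1KO (log2 change 1.52 ± 0.69, limma adjusted p = 0.530). Without Vehicle replicate 4, which holds the 0, its log2 change was 0.72. In both, each iMSBmal1KO library was above each Vehicle library, and neither passed the threshold. The region of Olfr56 passed the filter mainly through the iMSBmal1KO libraries. The smallest among lower regions were at Olfr723, Olfr1087, Olfr94 and Olfr54, with log2 changes of -0.74, -0.61, -0.57 and -0.44, limma adjusted p from 0.644 to 0.767 and overlapping groups. Without Vehicle replicate 4 the changes were -0.49, -0.14, -0.24 and 0.07.

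**Figure D5:**
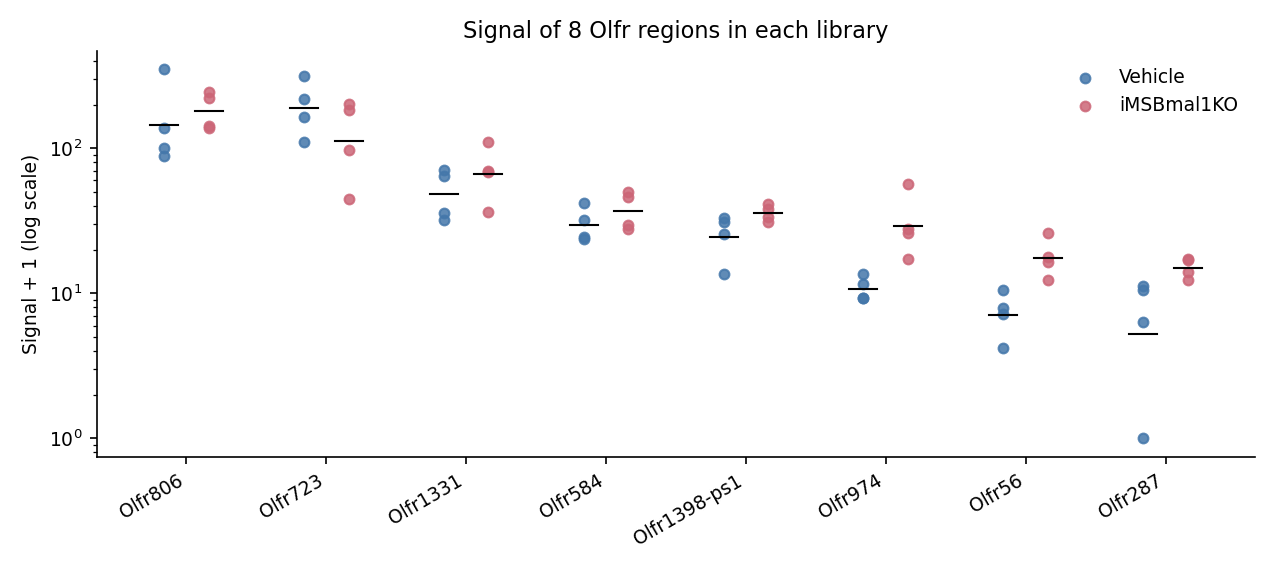
Signal + 1 on a log axis in each library for 8 Olfr regions, the 5 with the highest signal and those of Olfr974, Olfr56 and Olfr287 with the smallest p (Vehicle in blue on the left, iMSBmal1KO in red on the right, line at the group mean of log2 signal + 1). The groups overlap in the 5 regions on the left and do not overlap in the 3 on the right, where single libraries hold 0 to 59 reads.

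By gene, none of the other Olfr sums passed the threshold. Olfr287 was at 22.4, 15.4, 21.6 and 6.25 in Vehicle and 29.5, 30.1, 25.05 and 28.9 in iMSBmal1KO (log2 change 0.89 ± 0.35, limma adjusted p = 0.503), with separate groups, and the change was 0.51 without Vehicle replicate 4. The next higher genes, Olfr809 and Olfr267, had log2 changes of 0.88 and 0.45 (limma adjusted p = 0.550 and 0.596), or 0.53 and 0.27 without Vehicle replicate 4. The lowest p among lower genes were at Olfr1419, Olfr632, Olfr723 and Olfr1087, with log2 changes of -0.65, -0.64, -0.74 and -0.61 and limma adjusted p of 0.601 to 0.646. Leaving out 1 library at a time gave -0.96 to -0.30 at Olfr1419, nearest 0 without Vehicle replicate 3, and -0.98 to -0.34 at Olfr632, nearest 0 without iMSBmal1KO replicate 1.

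The genes with the most regions were Olfr56 with 17, Olfr1398-ps1, Olfr433 and Olfr643 with 10 each and Olfr1372-ps1 with 9. Of the 17 regions of Olfr56, 1 lay in the RefSeq Olfr gene and 8 in other genes (9930111J21Rik1, 9930111J21Rik2 and Gm42074), and all 10 of Olfr1398-ps1 lay in Gm30125. Their summed signal was 54.8 ± 4.89 in Vehicle and 68.6 ± 12.5 in iMSBmal1KO at Olfr56, and 65.9 ± 9.45 and 81.6 ± 24.4 at Olfr1398-ps1 (SD, n = 4). Olfr433 was at 52.9 ± 25.7 and 42.5 ± 12.3, Olfr643 at 28.3 ± 16.1 and 18.3 ± 5.94, and Olfr1372-ps1 at 58.5 ± 9.85 and 58.6 ± 10.6. None of these 5 passed the threshold (limma adjusted p from 0.610 to 0.998).

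Receptors with known roles outside the nose had little signal in this muscle. Olfr16 had 1 region with 25 reads, at 1.07, 1.03, 2.54 and 6.25 in Vehicle and 1.28, 6.69, 1.19 and 6.27 in iMSBmal1KO, which lies in the RefSeq gene Gm35686 and outside the window printed above. Olfr544 had 1 region with 46 reads, at 6.40, 3.08, 7.63 and 12.5 in Vehicle and 5.14, 4.18, 3.58 and 1.25 in iMSBmal1KO. Both were too shallow to test, and the groups overlapped. Olfr78, Olfr558, Olfr734, Olfr2 and Olfr1393 had no region. A gene without a region had no region called there, which sets no upper limit on its accessibility.

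The genes of olfactory signalling and receptor choice were in part open in muscle. Of 22 listed, 19 had a region, the exceptions being Cnga2 (a subunit of the olfactory cation channel), Rtp1 and Rtp2 (chaperones that bring receptors to the cell surface). Promoter signal per kb in Vehicle was 30.6 ± 10.2 at Gnal and 44.6 ± 11.96 at Adcy3, the G protein and cyclase of the pathway. Over all Olfr regions, near a start or not, signal per kb was 29.6 to 52.0 by library. Such promoter values are not particular to the pathway. The 4 endothelial markers ran from 30.1 ± 13.5 at Pecam1 to 53.7 ± 7.68 at Tie1. The fibre markers ran from 48.0 ± 25.5 at Myh2 to 1819 ± 460 at Acta1. Promoter signal per kb in Vehicle was 77.7 ± 14.1 at Lhx2 and 402 ± 70.5 at Ldb1, which together act at olfactory receptor enhancers. At Kdm1a, a histone demethylase, it was 286 ± 67.5 (SD, n = 4). Of 109 tested regions of the list none passed the threshold (limma) and 5 had an unadjusted p under 0.05, where all tested regions gave 0.0881% and 9.22%. Their median log2 change was 0.18, against 0.12 over all.

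The 13 listed genes of constitutive heterochromatin all had regions. Among them, promoter signal per kb in Vehicle was 671 ± 197 at Suv39h1 (a histone H3 lysine methyltransferase), 249 ± 67.3 at Setdb1 (another), 381 ± 119 at Cbx1 (a heterochromatin protein), 568 ± 48.6 at Lbr (the lamin B receptor) and 661 ± 28.2 at Lmna (lamin A and C; SD, n = 4). Of 63 tested regions none passed the threshold (limma) and 9 had an unadjusted p under 0.05, where all tested regions gave 0.0881% and 9.22%. Their median log2 change was 0.13, against 0.12 over all. At the level of genes, Atrx had the largest log2 change of the list, 0.66 ± 0.29 (SE, limma adjusted p = 0.510).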

How the data were processed

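The authors deposited 1 table of ATAC-seq signal per region for the 8 libraries, with lengths and distances to transcript ends in bp. The submitters' processing notes name Partek, Bowtie2, MACS2 and DESeq2 and the builds mm10 and GRCm39, with no versions or order. The deposited signal took values on a grid: between 98.3% and 99.8% of the values above 0 were multiples of a step set by the library (0.428 to 3.13), with a tolerance of 0.02 steps, and division by that step gave read equivalents. Planned count tests were not run, because some values were no whole reads. Positions matched GRCm38: all 326 Olfr regions with a RefSeq gene had a transcript over it. Coordinates are as listed in the table, where abutting regions share a position.

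Log2(signal + 1) was fitted with limma-trend (limma 3.58.1, R 4.3.3, robust empirical Bayes) on all 8 libraries with group as the term, over 124901 regions and, summed by gene name, over 22270 genes, with Benjamini-Hochberg adjustment over all of them and a threshold of 0.05. Fold changes on this scale understate changes of low regions. The filter for genes was 0.954 read equivalents per M (units of 1e+06) in at least 4 libraries and 15 in all. The limma fit was tested on simulated data for regions that passed the filter. Single values per library were compared by exact permutation tests in Python 3.11.15 with pandas 2.3.3, and sets within libraries by exact sign-flip tests, of which that over cluster spans was added after values were seen. Alternatives were other scalings, pseudocounts of 0.5 and 5, other filters, the replicate block and leaving out each library.

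The members, gene lists and tests were chosen with earlier results of these data known. The rule named the 10 Olfr regions with the highest signal (1 per gene), regions past the threshold or else the 4 smallest p in each direction, the 5 genes with most regions, the 4 smallest p in each direction for genes, 7 receptors known outside the nose, and the 5 clusters with most Olfr genes. The regions over annotated starts, the RefSeq windows with a region and the single genes of the lists were named after values were seen. Lists of 3 or 4 genes each for satellite, fibro-adipogenic, endothelial, macrophage, smooth muscle and Schwann cells had regions summing to at most 1550 in any library. The 15 muscle fibre genes summed to at least 25508. The lists differ in size, so the sums do not measure shares of cell types. No tested region of these lists passed the threshold, where 0.0881% of all tested regions did.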

Additional observations from a re-analysis of the deposited data

Results flagged for a closer look

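In 2 of 72 group values examined, 1 library lay far from the other 3 of its group, judged by the gap to its nearest neighbour as a share of the range. Chance gives about 1 in 20, or 3.6 of 72. The median signal over all Olfr regions was 3.58 in iMSBmal1KO replicate 3, against 2.51 to 2.57 in the other iMSBmal1KO libraries. The region of Olfr94 at chr17:37197277-37197391 was at 20.1 in iMSBmal1KO replicate 2, against 4.77 to 7.28 in the others.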

How the results depend on the processing

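No Olfr region passed the threshold under any of the 16 other settings, and the gene count was 1 under each setting that kept all libraries. Leaving out 1 library at a time gave 0 to 1 genes, 0 regions, -9.14 to -46.5 reads per M for the Olfr share and -0.26 to 0.0088 for the log2 summed signal, which turned without Vehicle replicate 4. It gave 0.00 to 0.22 for the median log2 change of Olfr regions relative to all regions, 0.15 in the deposited scaling and -0.15 with no filter. Without regions within 1000 bp of a start the Olfr share differed by -11.2. The ratio to vomeronasal regions turned to 0.20 with the median region and 0.73 without regions near starts. The promoter share moved from -11.8 to -35.3 points with 500 bp and -7.58 with 2000 bp. Small log2 changes turned at Olfr650-ps1 (-0.066 with total reads, -0.032 with loess, -0.40 to 0.31 leaving out single libraries), at Olfr1372-ps1 (region -0.0052 with total reads; sum -0.12 and -0.072 with total reads and loess, -0.10 to 0.11 leaving out single libraries), and leaving out single libraries at Olfr54 (-0.85 to 0.073) and Olfr433 (-0.43 to 0.043). The cause was not tested.

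With the replicate number as a block, 0 regions and 1 gene passed, and the Olfr share differed by -29.4 (exact sign-flip permutation over 4 pairs, p = 0.25) and the summed signal by -0.12 (p = 0.5, exact). The smallest p that 4 pairs allow is 0.125. Same-numbered libraries correlated at -0.06 to 0.14 in their deviations from the group means, and no Vehicle library correlated best with its own number. Whether the numbers pair the samples cannot be decided from these correlations. With the block, 66 of 22270 genes were called higher and 39 lower, against 16 and 13 without it. The smallest limma adjusted p among Olfr genes was 0.0071 with the block and 0.0383 without. Tests with edgeR and DESeq2 were not run. The stricter filter of 50 reads kept the same 28 Olfr regions. At a median of 29 reads over 8 libraries, small differences at most Olfr regions were not detectable.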
